A study of Rattus norvegicus with 10 samples.

Results

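miR-103-3p and miR-107-3p are a pair of paralogous mature miRNAs that share their seed and come from introns of the pantothenate kinase genes. They were picked out by their mature names, and the rule uses no measured value, although the family was proposed with earlier results of these data known. They are 2 of the 765 mature miRNAs in a small RNA sequencing table from the rat hippocampus. The table holds 10 libraries from Wistar rats aged 10 weeks. In 5 libraries the rats were sham-operated, and in 5 they had the 2-VO operation, in which both common carotid arteries are tied off so that blood flow to the forebrain falls. No agent or transgene is named in the labels, and how long after the operation the tissue was taken is not stated in the sources used here. Libraries are named by group and by the number in the sample title (sham 1 to 5, and 2-VO 3, 5, 6, 7 and 8). Whether each library is a separate animal is not stated in the labels. The p-values therefore reflect library-to-library spread alone, part or all of which may be technical.

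A miRNA guides Argonaute to messenger RNAs through its seed, the bases near its 5′ end, and lowers their translation and stability. miR-103 and miR-107 sit inside the genes of pantothenate kinases, the enzymes that start coenzyme A synthesis, and are best known as regulators of insulin sensitivity through caveolin-1 and as repressors of Dicer, the enzyme that makes mature miRNAs. In brain, miR-107 has been studied for its target BACE1, the protease that starts amyloid-β production, and both miRNAs for CDK5R1, the activator of a neuronal kinase. miR-107 has also been studied as a p53-induced miRNA and as a repressor of the hypoxia-inducible factor partner ARNT.

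The mature sequences, from RefSeq's rat annotation (GRCr8), are shown because the whole difference between the paralogs lies in 1 base. Capitals mark the seed (bases 2 to 8) and base 22, counted from the 5′ end.
miR-103-3p: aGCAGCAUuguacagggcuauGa
miR-107-3p: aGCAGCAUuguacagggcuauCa
Both are 23 bases long and differ by G22C, with the base of miR-103-3p first. A read that stops before base 22 therefore matches both names, and the sources used here do not state how such reads were assigned. Among the 690 listed miRNAs with a RefSeq mature sequence, 0 others had this seed.

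The family has 3 hairpins in the rat genome. They are shown to mark where the mature 3p arm (capitals) lies in each.
Mir103a1: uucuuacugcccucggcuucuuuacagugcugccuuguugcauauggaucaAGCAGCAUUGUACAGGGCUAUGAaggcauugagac
Mir103a2: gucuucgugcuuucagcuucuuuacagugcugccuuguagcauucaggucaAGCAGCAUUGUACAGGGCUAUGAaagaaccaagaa
Mir107: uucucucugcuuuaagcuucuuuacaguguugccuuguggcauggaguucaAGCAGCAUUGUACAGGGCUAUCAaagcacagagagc
In GRCr8 coordinates Mir103a1 lies at chr10:20748474-20748559 on the + strand, within the span of Pank3. Mir103a2 lies at chr3:138963227-138963312 on the + strand, within Pank2. Mir107 lies at chr1:241750418-241750504 on the - strand, within Pank1. The 3p arm begins at base 52 in each hairpin. In global alignments Mir103a1 was 80.2% identical to Mir103a2 and 80.5% to Mir107, and Mir103a2 was 83.0% identical to Mir107. Both Mir103 hairpins give the same mature miR-103-3p, so its reads cannot be divided between Pank3 and Pank2.

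The libraries had 13032805 to 13850400 reads as the divisor of their RPM values (reads scaled to a fixed library total), as worked out from the steps of the values. The listed miRNAs held 60.3% to 78.0% of that divisor, with the lowest share in 2-VO replicate 3. A value of 0 stands for fewer than 10 reads. The neuronal miRNAs fixed as tissue markers (miR-9a-5p, miR-124-3p, miR-128-3p and miR-132-3p) summed to 168259 to 204855 RPM in sham and 159536 to 205897 RPM in 2-VO libraries. The choroid plexus markers ran from 548 to 949 RPM in sham and from 387 to 562 RPM in 2-VO libraries. For red blood cells the ranges were 130 to 155 and 84.1 to 215 RPM, and for leukocytes and microglia 26.2 to 36.8 and 27.0 to 49.5 RPM. The oligodendrocyte markers ran from 1865 to 2762 and from 1615 to 2923 RPM. Such sums mostly follow their most abundant markers. By mean RPM over the 10 libraries, miR-9a-5p (132415) and miR-128-3p (52524) far exceeded miR-124-3p (2255) and miR-132-3p (617). For the choroid plexus miR-204-5p averaged 539 RPM, and for oligodendrocytes miR-219a-2-3p averaged 2112 RPM. miR-451-5p and miR-144-3p averaged 19.8 and 4.07 RPM, so miR-486 held most of the red blood cell sum. The 6 markers of epithelium and sensory cells summed to 10.3 to 23.8 RPM in sham and 12.02 to 79.6 RPM in 2-VO libraries, where 2-VO replicate 3 held the highest value and no other library exceeded 28.8 RPM. Of all 22 markers, miR-223-3p, miR-200a-3p, miR-200b-3p and miR-96-5p were listed at 0 in at least 1 library.

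miR-103-3p was an abundant hippocampal miRNA at nearly the same level in both groups. It stood at 3627, 4366, 4613, 3991 and 4932 RPM in sham replicates 1 to 5. In 2-VO replicates 3, 5, 6, 7 and 8 it stood at 3738, 4214, 4825, 4297 and 4533 RPM. The lowest and the highest of the 10 values were both sham libraries, and the 2-VO range lay inside the sham range. The sham mean was 4306 ± 512 RPM and the 2-VO mean 4322 ± 403 RPM (SD, n = 5 each). The log2 fold change of 2-VO over sham was 0.0086 ± 0.10 (SE), with a 95% interval of -0.21 to 0.23 and an adjusted p of 0.99 (limma's moderated test on log2(RPM + 1), Benjamini-Hochberg over 474 miRNAs). On the linear scale that interval runs from 0.862 to 1.17 times the sham level. The exact two-sided permutation test over the 252 assignments of libraries gave p = 0.94.

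miR-107-3p was the minor member. It stood at 235, 286, 306, 242 and 279 RPM in sham replicates 1 to 5. Its 2-VO values were 216, 280, 268, 275 and 320 RPM in replicates 3, 5, 6, 7 and 8. Here both ends of the 10 values were 2-VO libraries, and the sham range lay inside the 2-VO range. The sham mean was 269.8 ± 30.4 RPM and the 2-VO mean 272 ± 37.1 RPM (SD, n = 5 each). The log2 fold change was 0.0082 ± 0.12 (SE), with a 95% interval of -0.25 to 0.26 (0.843 to 1.20 times the sham level) and a limma adjusted p of 0.99. The exact two-sided permutation p was 0.93.

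**Figure D1:**
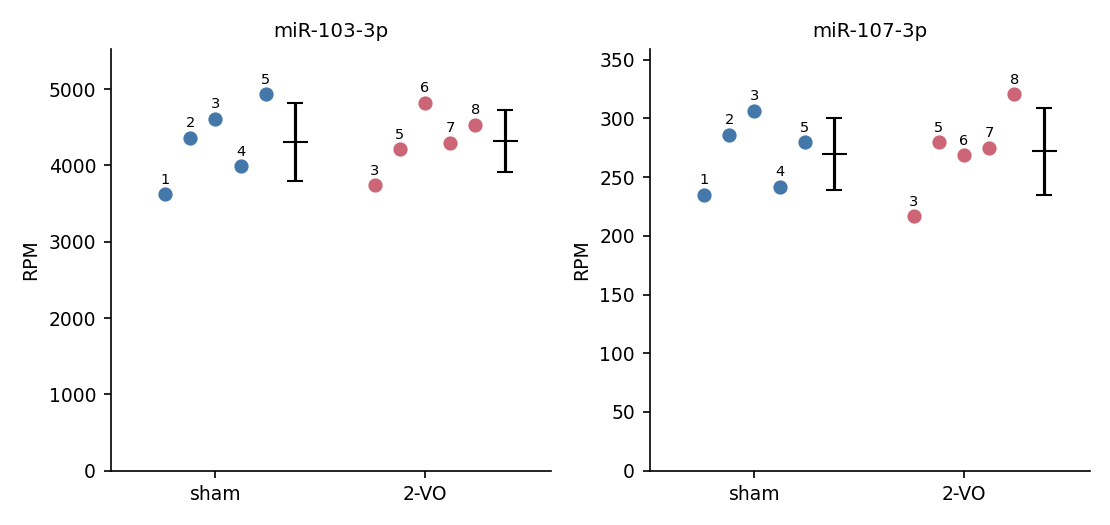
RPM of miR-103-3p (left) and miR-107-3p (right) in each library of the sham and 2-VO groups, on axes that start at 0. Points are libraries with their replicate number, and the bar beside each group is the mean ± SD (n = 5); the groups overlap for both miRNAs, at means of 4306 and 4322 RPM and of 269.8 and 272 RPM.

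Of the 2 members, 0 passed the adjusted threshold of 0.05, where 0% of the 474 miRNAs tested did (limma). An unadjusted p under 0.05 was found for 24 of the 474, or 5.06%, and for 0 of the 2 members as deposited. With voom on the whole reads 0 of the 474 passed and 35 had an unadjusted p under 0.05. The groups of libraries did not overlap for 3 of the 474, or 0.633%, and overlapped for both members. The sign of these fold changes is not settled by the data. It was positive under the other 4 scalings tried (listed reads, TMM, median-of-ratios and quantile), at 0.064 to 0.16 for miR-103-3p and 0.063 to 0.12 for miR-107-3p. The largest of these, 0.16 for miR-103-3p after quantile normalization, had a 95% interval of 0.024 to 0.29 and an unadjusted p of 0.025 (limma adjusted p = 0.50). After that normalization 39 of the 474, or 8.23%, had an unadjusted p under 0.05. With the values as deposited the sign turned negative for both when sham replicate 1, sham replicate 4 or 2-VO replicate 8 was left out. It also did so without 2-VO replicate 6 for miR-103-3p and without 2-VO replicate 5 for miR-107-3p. These values ran down to -0.051 and -0.053. As hippocampus was sequenced in bulk, fewer cells of a type and less of a miRNA per cell cannot be told apart.

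The members of the pair were listed at unequal levels. Mature miRNAs have nearly the same length, so RPM values can be set side by side, although ligation and amplification differ between sequences. Reads without base 22 match both names, and how far their assignment shapes the difference was not tested. miR-103-3p was the 29th and miR-107-3p the 133rd most abundant of the 765 listed miRNAs by mean RPM. Over the 10 libraries the rank of miR-103-3p ran from 28 to 32 and that of miR-107-3p from 120 to 142. Next above miR-103-3p was miR-125a-5p at 4530 ± 615 RPM (SD, n = 10), which exceeded it in 7 of 10 libraries, and next below was miR-328a-3p at 4033 ± 545 RPM, which exceeded it in 4. The neighbours of miR-107-3p were miR-674-3p at 275 ± 46.3 RPM and miR-135a-5p at 268.7 ± 48.6 RPM, each higher than miR-107-3p in 4 of 10 libraries. The neighbours were picked by mean RPM in these same libraries, so their closeness in level follows from that choice.

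The ratio of miR-103-3p to miR-107-3p does not depend on the RPM divisor, but it may depend on how reads without base 22 were assigned. It was 15.4, 15.3, 15.1, 16.5 and 17.6 in sham replicates 1 to 5. In 2-VO replicates 3, 5, 6, 7 and 8 it was 17.3, 15.1, 18.0, 15.6 and 14.1. The 2-VO libraries held both the highest and the lowest ratio, and the groups overlapped. The sham mean was 15.98 ± 1.09 and the 2-VO mean 16.02 ± 1.58 (SD, n = 5 each). On the log2 scale the difference was 0.00035 ± 0.077 (SE), with a 95% interval of -0.18 to 0.18 (exact two-sided permutation test, p = 0.99, adjusted over 3 measures 0.99). miR-107-3p made up 5.27% to 6.60% of the reads of the pair. The reads of miR-103-3p numbered 50229 to 64272 per library and those of miR-107-3p 2969 to 4434. Counting error was thus 0.394% to 0.446% for miR-103-3p and 1.50% to 1.84% for miR-107-3p, against a spread between the 10 libraries of 10.1% and 11.8% (coefficient of variation of RPM). These counting errors treat each read as an independent molecule, which PCR copies are not.

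Other listed miRNAs that differ by a single base place that ratio in context. Among 15 such pairs of equal length with both members at a mean of at least 10 RPM, the pooled within-group SD of the log2 ratio ran from 0.068 for let-7b-5p and let-7c-5p to 0.31 for miR-1-3p and miR-1b. The SD for miR-103-3p and miR-107-3p was 0.12, the sixth smallest. The pairs differ widely in level, and miR-1-3p averaged only 11.9 RPM. Few reads widen such an SD, and whether the order follows level was not tested. Some of these pairs share a miRNA. The differing base of miR-103-3p and miR-107-3p, at position 22, lay nearest the 3′ end, and in the other pairs it lay between positions 2 and 19.

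The sum of the pair was also compared. It came to 3861, 4652, 4919, 4233 and 5211 RPM in sham replicates 1 to 5, and to 3954, 4494, 5093, 4573 and 4854 RPM in 2-VO replicates 3, 5, 6, 7 and 8. The sum was lowest and highest in sham libraries, as for miR-103-3p, which makes up most of it. The mean log2 sum was 12.15 ± 0.17 for sham and 12.16 ± 0.14 for 2-VO (SD, n = 5 each), a difference of 0.0087 ± 0.099 (SE; 95% interval -0.22 to 0.24, exact permutation p = 0.92, adjusted over 3 measures 0.99). As a share of the listed miRNA RPM the pair took 0.567%, 0.626%, 0.639%, 0.637% and 0.705% in sham replicates 1 to 5. In 2-VO replicates 3, 5, 6, 7 and 8 it took 0.656%, 0.645%, 0.653%, 0.713% and 0.652%. On this scale sham replicate 1 was the lowest library and 2-VO replicate 7 the highest, and the 2-VO libraries other than replicate 7 lay within 0.645% to 0.656%. The means were 0.635% ± 0.0491 in sham and 0.664% ± 0.0276 in 2-VO libraries. Scaled to the listed reads, the log2 fold change was 0.067 for miR-103-3p and 0.066 for miR-107-3p, with limma adjusted p of 0.77 and 0.80.

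**Figure D2:**
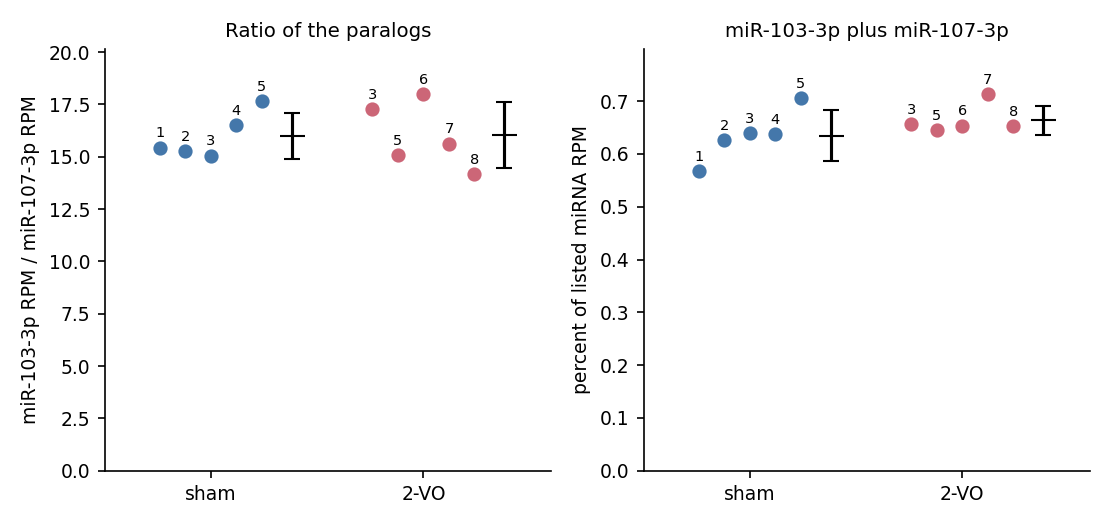
Ratio of miR-103-3p to miR-107-3p RPM (left) and the sum of both as a percent of the listed miRNA RPM (right) in each library, on axes that start at 0. Points are libraries with their replicate number and bars are the mean ± SD (n = 5); the ratio averaged 15.98 in sham and 16.02 in 2-VO, and the share was lowest, 0.567%, in sham replicate 1.

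The RPM of both members moved with the share of the divisor that fell on listed miRNAs. Over the 10 libraries that share had a Pearson's r of 0.78 with log2(RPM + 1) of miR-103-3p (permutation p = 0.0084) and a Spearman's rho of 0.76 (permutation p = 0.015). For miR-107-3p r was 0.74 (permutation p = 0.016) and rho 0.65 (permutation p = 0.049). Adjusted over the 4 relations computed, p was 0.021 for both r values and 0.059 and 0.099 for the rho values. Without 2-VO replicates 3 and 7, the libraries farthest from the median share, r was 0.83 and 0.69. The relation was not particular to the pair. RPM is the listed share multiplied by the miRNA's part of the listed reads, so such a relation is partly built in. The permutation p-values do not allow for this. Over the 339 miRNAs that averaged 10 RPM or more the median r was 0.58, and 49 had a higher r than miR-103-3p and 83 a higher r than miR-107-3p. With 5 libraries in each group, r within a group was not computed.

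**Figure D3:**
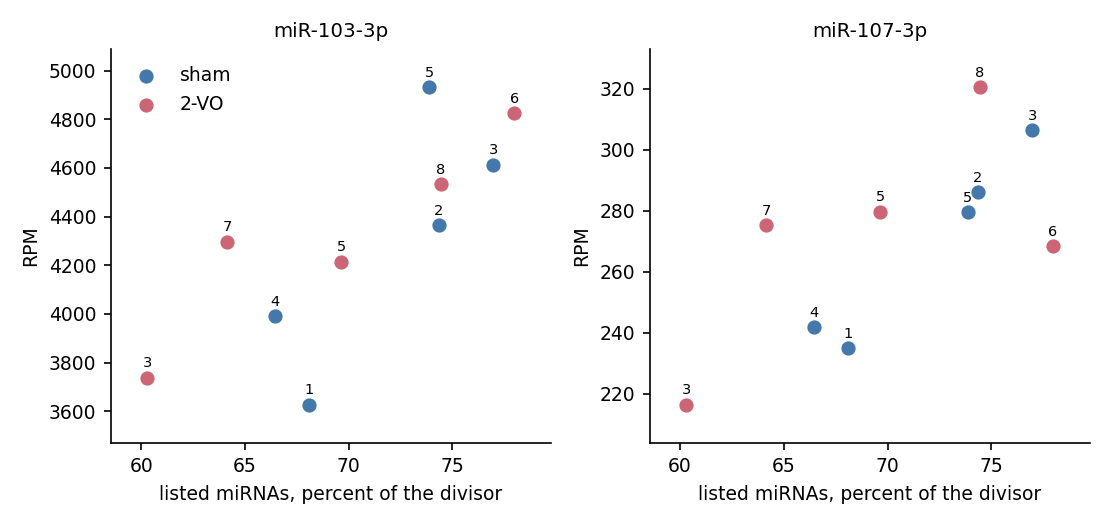
RPM of miR-103-3p (left) and miR-107-3p (right) against the percent of the divisor that fell on listed miRNAs, 1 point per library with its replicate number; neither axis starts at 0. 2-VO replicate 3 had the lowest share (60.3%) and the lowest miR-107-3p (216 RPM), and r was 0.78 and 0.74 over the 10 libraries.

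The members' own relation depended on that scaling. Their log2(RPM + 1) values had an r of 0.76 (permutation p = 0.012, adjusted 0.021) and a rho of 0.60 (permutation p = 0.074, adjusted 0.099) over the 10 libraries. Without sham replicate 1 and 2-VO replicate 3, the libraries farthest from the median of miR-103-3p, r was 0.43. Leaving out the farthest libraries narrows the range, which can itself lower r, so the fall does not show what the relation rests on. Scaled to the listed reads, r was 0.43 (permutation p = 0.22) and rho 0.18 (permutation p = 0.63), and r was -0.22 without sham replicate 1 and 2-VO replicate 7. The points share a divisor, and reads without base 22 may be counted under either name or under both.

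The spread of both members within groups was at or below that of most miRNAs. The pooled within-group SD of log2(RPM + 1) was 0.16 for miR-103-3p and 0.18 for miR-107-3p, against a median of 0.20 over the 339 miRNAs. A smaller SD was found for 79 of them (23.3%) in the case of miR-103-3p and for 153 (45.1%) in the case of miR-107-3p. Scaled to the listed reads, the SDs were 0.092 and 0.12 against a median of 0.16, and 38 miRNAs (11.2%) and 86 (25.4%) had smaller ones.

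The profiles most like each member are given by Pearson's r of log2(RPM + 1) over the 10 libraries, among 337 other miRNAs of at least 10 RPM, as a description. For miR-103-3p they were miR-181d-5p (0.93), miR-186-5p (0.90), miR-30a-5p (0.90), miR-344b-5p (0.89) and miR-140-3p (0.89). For miR-107-3p they were let-7f-2-3p (0.89), miR-29a-3p (0.88), miR-487b-3p (0.86), miR-361-5p (0.86) and miR-181d-5p (0.86). The median r over the 337 was 0.44 for miR-103-3p and 0.50 for miR-107-3p. The paralog was not among the first 5 of either list, as 34 miRNAs had a higher r with miR-103-3p than miR-107-3p did, and 39 a higher r with miR-107-3p than miR-103-3p did. Scaled to the listed reads, miR-186-5p, miR-181d-5p and miR-140-3p stayed among the first 5 for miR-103-3p, and let-7f-2-3p, miR-29a-3p and miR-361-5p for miR-107-3p.

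The other arm of these hairpins was not seen. The passenger strands miR-103-1-5p, miR-103-2-5p and miR-107-5p were listed at 0 in all 10 libraries, which stands for fewer than 10 reads each, against at least 2969 reads of miR-107-3p and 50229 of miR-103-3p. The planned ratios of the 3p to the 5p arm could therefore not be computed. Of 283 hairpins whose arms are both listed under 1 name, 85 had a major arm at or above the mean of miR-107-3p, and in 9 of these, miR-107 included, the minor arm was at 0 throughout. At or above the mean of miR-103-3p there were 17, and in 0 of these was the minor arm at 0 throughout. The Mir103 hairpins are not among the 283, since their 5p rows carry a hairpin number and their shared 3p row does not. The others of the 9 were miR-328a, miR-101b, miR-23a, miR-185, miR-186, miR-192, miR-598 and miR-149, named after their values were seen.

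miR-103 and miR-107 belong with the miR-15 and miR-16 miRNAs to a wider group whose members hold AGCAGC at the 5′ end. In the pair the motif starts at base 1, and in the others at base 2, so that their seeds are offset by a base. The sequences from RefSeq (GRCr8) are shown for this offset, with the motif in capitals.
miR-103-3p: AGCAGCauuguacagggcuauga
miR-16-5p: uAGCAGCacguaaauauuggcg
miR-195-5p: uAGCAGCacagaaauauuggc
miR-497-5p: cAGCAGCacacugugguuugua
miR-322-5p: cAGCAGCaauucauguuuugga
miR-15b-5p: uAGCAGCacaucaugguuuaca
miR-503-5p: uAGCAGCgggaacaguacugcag
Searched in the mature strand alone, AGCAGC lay within bases 1 to 8 of 8 of the 690 miRNAs with a sequence (1.16%), which are the pair and these 6. The seventh member of the list, miR-15a-5p, was taken by name.

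By level the pair dominated this group. miR-103-3p held 85.7% and miR-107-3p 5.38% of the mean RPM of the 9 miRNAs, and miR-16-5p, a repressor of cell-cycle genes, held 4.96%. The pair's share of the 9 was 91.3%, 91.2%, 91.4%, 90.4% and 91.5% in sham replicates 1 to 5. It was 89.6%, 90.1%, 91.8%, 92.3% and 91.3% in 2-VO replicates 3, 5, 6, 7 and 8. The 2-VO libraries spread more widely than the sham libraries, with 2-VO replicate 3 the lowest and 2-VO replicate 7 the highest of all 10. The log2 ratio of the pair to the other 7 was 3.37 ± 0.080 for sham and 3.35 ± 0.20 for 2-VO (SD, n = 5 each). The difference was -0.017 ± 0.097 (SE; 95% interval -0.24 to 0.21, exact permutation p = 0.87, adjusted over 3 measures 0.99). It was 0.045 without 2-VO replicate 3, 0.025 without 2-VO replicate 5 and 0.00027 without sham replicate 5.

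**Figure D4:**
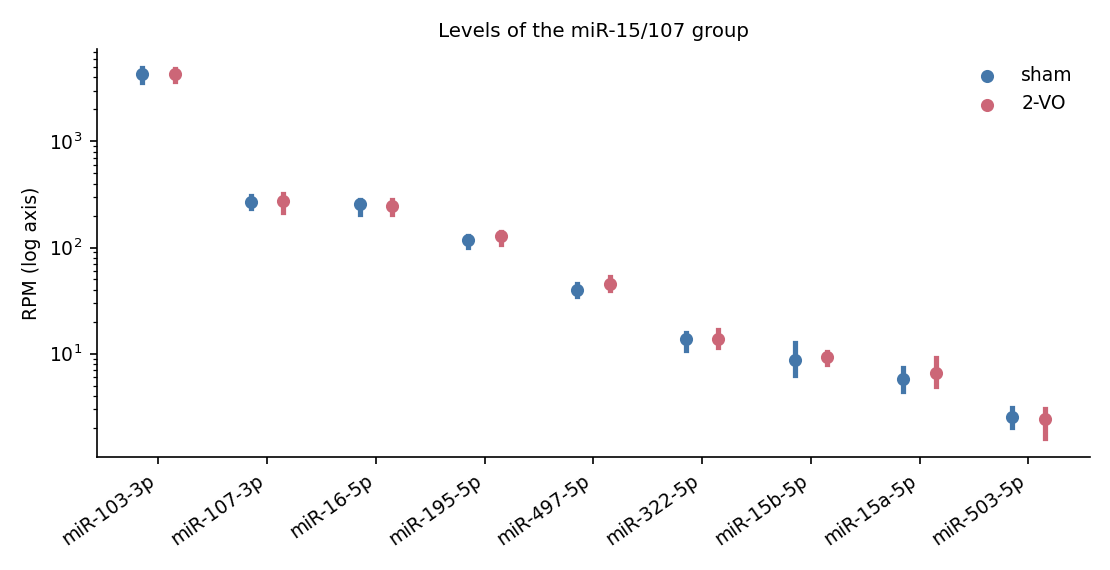
RPM (log axis) of miR-103-3p, miR-107-3p and the 7 other miRNAs of the group in sham and 2-VO libraries. Points are means and bars run from the lowest to the highest of 5 libraries; miR-103-3p lies more than a decade above miR-107-3p and miR-16-5p, which lie close together.

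Of the 7 other miRNAs of the group, 0 passed the adjusted threshold and 0 had an unadjusted p under 0.05 (limma). That second count depended on the scaling. miR-497-5p had an unadjusted p of 0.013 when scaled to the listed reads and 0.0079 under TMM. Median-of-ratios scaling gave 0.0086 and quantile values gave 0.031. For miR-195-5p it was 0.033 under TMM and 0.038 under median-of-ratios scaling. With voom the p was 0.0083 for miR-497-5p and 0.037 for miR-195-5p. With TMM or median-of-ratios factors these were 2 of the 7, where 37 of all 474 (7.81%) had such a p. With voom it was 2 of the 7, where 35 of the 474 (7.38%) did. For listed reads it was 1 of the 7 against 35 of the 474 (7.38%), and for quantile values 1 of the 7 against 39 (8.23%). The smallest adjusted p in the list was 0.49 with TMM and 0.42 with median-of-ratios factors. As deposited, 5 of the 7 had higher and 2 lower mean levels in 2-VO than in sham, with a median log2 fold change of 0.12. Over all 474 miRNAs 179 were higher and 295 (62.2%) lower, with a median of -0.051. Scaled to the listed reads the split over all miRNAs was 240 higher and 234 lower, and that of the 7 was unchanged at 5 and 2. With TMM factors it was 248 and 226 over all miRNAs and 6 and 1 in the list, as miR-16-5p turned positive. Single libraries moved these figures too. The list's median was 0.031 (4 higher and 3 lower) when sham replicate 1 was left out, 0.047 when it was sham replicate 2 and 0.056 when it was 2-VO replicate 5. Without 2-VO replicate 8, 4 were higher and 3 lower. In the other direction, the list's median was 0.13 (6 higher and 1 lower) without sham replicate 3. It was 0.14 without sham replicate 5 and 0.14 without 2-VO replicate 7. Without 2-VO replicate 3, 6 were higher and 1 lower, with a median of 0.10. The list's median was also 0.079 with a pseudocount of 5 RPM and 0.071 over the 4 members that averaged 10 RPM or more. With the replicate block it was -0.0043, where over all miRNAs 92 were higher and 382 lower, with a median of -0.17. Over all miRNAs the split was 238 higher and 238 lower without 2-VO replicate 3, with a median of -0.00017. Leaving out 2-VO replicate 7 gave a median of -0.013, sham replicate 3 one of -0.028 and sham replicate 5 one of -0.032. Leaving out sham replicate 1 gave -0.078, and 2-VO replicate 5 gave -0.079. miR-16-5p averaged 254.9 ± 27.4 RPM (sham) and 245 ± 27.2 RPM (2-VO), a level close to that of miR-107-3p. miR-195-5p averaged 118 ± 10.4 and 129 ± 12.4 RPM, a log2 fold change of 0.12 (adjusted p = 0.87 with limma). Its cluster partner miR-497-5p averaged 39.5 ± 3.73 and 45.3 ± 5.17 RPM, a log2 fold change of 0.19 (adjusted p = 0.77 with limma). The lower-level members were miR-322-5p (13.7 ± 1.87 and 13.9 ± 1.94 RPM), miR-15b-5p (8.64 ± 2.46 and 9.25 ± 0.894 RPM), miR-15a-5p (5.75 ± 1.27 and 6.60 ± 1.59 RPM) and miR-503-5p (2.51 ± 0.450 and 2.41 ± 0.545 RPM). The groups overlapped in each of these 7.

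**Figure D5:**
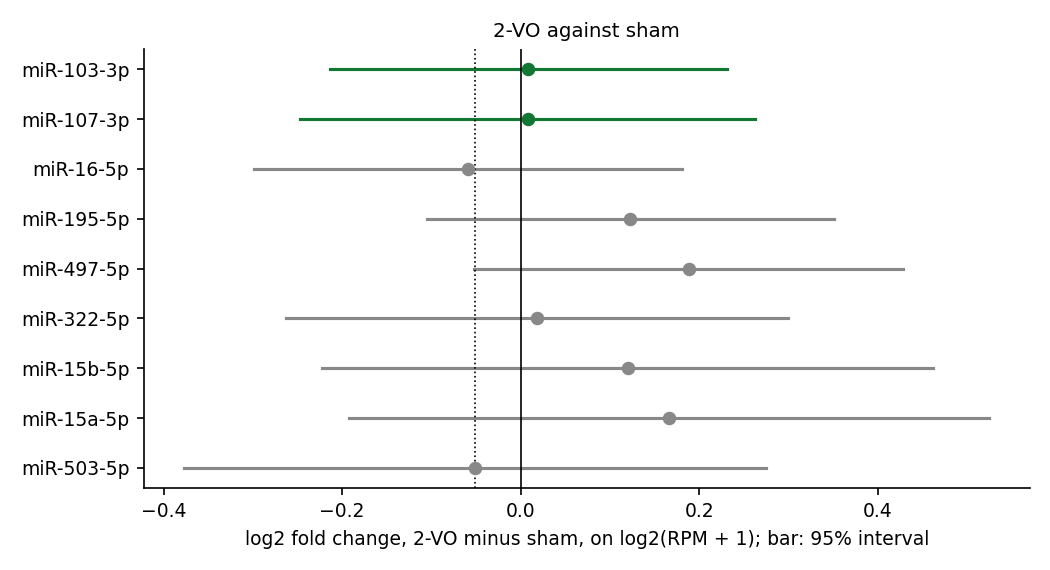
Log2 fold change of 2-VO over sham on log2(RPM + 1) for the pair (green) and the 7 other miRNAs of the group (grey). Points are limma estimates, bars are 95% intervals, the solid line marks 0 and the dotted line the median of all 474 miRNAs (-0.051); all 9 bars cross 0, and the pair lies at 0.0086 and 0.0082.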

How the data were processed

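The authors deposited RPM values, 1 column per library and 1 row per mature miRNA, per the file headers. Tools named in the submitters' processing notes are bcl2fastq and BWA, with rn6 as the build. The sources used here do not state the annotation, the divisor or the treatment of reads with several matches. The rows of let-7a-1-3p and let-7c-2-3p had the same mean (283 RPM) and the same SD in each group. Whether reads matching several names were counted under each was not tested. All 4962 values above 0 were whole reads within 0.01 reads at 1 divisor per library, and the smallest stood for 10 reads. The 474 miRNAs that averaged 1 RPM or more were compared on log2(RPM + 1) with limma 3.58.1 in R 4.3.3 (mean-variance trend, two-sided, no covariate, Benjamini-Hochberg adjustment, threshold 0.05), after tests on simulated data. Single measures were compared with exact permutation tests in Python 3.11.15 with SciPy 1.17.1, with intervals from the pooled SD. Permutation p of correlations used 100000 draws. Intervals are 95%. Groups came from the treatment label.

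The members, lists and tests were chosen with earlier results of these data known. Named miRNAs were the pair, its 5p arms, the 7 others of the miR-15/107 group, level neighbours, and the 5 most alike per member. The likeness after scaling and the pairs that differ by a single base were added after the data were seen. The planned edgeR test on whole reads was not run, since counts under 10 reads are not listed. Voom took its place on the same counts, so it has the same limit. Other settings changed the pseudocount, filter, scaling, weights, robust option and block, or left out each library. Sequences came from RefSeq (GRCr8), which was not the build of the files, and 690 of 765 names matched.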

Additional observations from a re-analysis of the deposited data

Results flagged for a closer look

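The log2 ratio of the miR-103 and miR-107 sum to the other 7 miRNAs of the group was 3.23 in sham replicate 4, against 3.38 to 3.44 in the other 4 sham libraries. Its gap to the nearest library was above 0.71 of the range of the 5 libraries. Of 24 groups of 5 values checked in this way (the pair, 3 measures and 7 other miRNAs in each group of libraries), 1 stood out, where chance gives about 1 in 20, or 1.2 groups.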

How the results depend on the processing

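Counting error taken from the reads lay below the spread between libraries for the pair, but it does not cover PCR copies, so how far depth limits these values was not tested. With 5 libraries per group the data leave fold changes of up to about 1.2 within the intervals. For each member 11 of 12 other settings kept a positive log2 fold change that did not pass, with smallest adjusted p of 0.50 for miR-103-3p and 0.70 for miR-107-3p, both after quantile normalization. The title numbers 3 and 5 are in both groups. Same-numbered libraries did not deviate together (correlations of deviations -0.058 and -0.18 over 474 miRNAs). The labels do not state what the number means, and whether such libraries share a batch was not tested. With the replicate block, which rests on these 2 pairs, the log2 fold change was -0.27 for miR-103-3p and -0.25 for miR-107-3p (limma adjusted p = 0.997 each), and 8 miRNAs passed in place of 0. Every other library has a number of its own, so this fit leaves almost nothing from which to estimate the spread between libraries. The 8 calls therefore have little to rest on. The SE in this fit was 0.26 for miR-103-3p and 0.31 for miR-107-3p, against 0.10 and 0.12 without the block. Within the same 2 numbers the replicate block gave -0.015 for the log2 ratio of the pair, -0.26 for its log2 sum and -0.28 for the log2 ratio to the other 7 miRNAs, with no test. Leaving out each library in turn gave 0 miRNAs past the threshold each time, and log2 fold changes of -0.051 to 0.060 for miR-103-3p and -0.053 to 0.087 for miR-107-3p. The log2 ratio of the pair ran from -0.043 to 0.044, the log2 sum from -0.050 to 0.061 and the ratio to the other 7 from -0.073 to 0.045, with exact p of at least 0.43. The sign turned in 5, 4 and 3 of the 10 cases, and the cause was not tested. Scaled to listed reads, with TMM or with median-of-ratios factors, the log2 sum stayed positive, at up to 0.073 (smallest exact p = 0.20). The edgeR test and the arm ratios were not run.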
